A study of Rattus norvegicus with 21 samples.

Results

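The late response of the parental line NBTII to FGF1 was taken from 5 of the 21 arrays of the series. The 4 arrays of cells given FGF1 for 24 or 48 h (2 of each) were pooled and set against the single array of control cells at 0 h. NBTII is a rat bladder carcinoma line of epithelial cells, and here it carried no transfected receptor. Every array after 0 h came from cells given FGF1 at 20 ng/ml with heparin. The series also holds NBTII at 0.5 h (1 array), 2 h and 6 h (2 arrays each), and NBTII-FGFR1, the same cells transfected with the receptor FGFR1, on 11 arrays at the same times. No array came from untreated cells at 24 or 48 h, so FGF1, heparin and time in culture cannot be told apart. The labels do not say whether replicates were separate cultures, so p-values rest on the scatter of these arrays alone, which may be of technical origin.

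FGF1 binds cell-surface FGF receptors together with heparan sulfate or heparin, and the receptor signals through Ras and the kinases MEK and ERK. ERK signalling switches on immediate-early genes such as Fos and Egr1, then subunits of the AP-1 transcription factor such as Fosl1, and then its own brakes, the Sprouty proteins and dual-specificity phosphatases. NBTII cells are known for scattering under FGF1, a loss of epithelial contacts studied as a model of epithelial-mesenchymal transition. Keratin 5, 14 and 15 filaments mark basal epithelial cells, and ID proteins block basic helix-loop-helix transcription factors.

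The 5 arrays were epithelial by their markers. The 9 measured epithelial markers had a median log2 signal of 8.79 at 0 h, and their summed log2 signal was 80.9 at 0 h and 76.3 to 80.2 on the late arrays. The 8 measured leukocyte markers summed to 38.6 at 0 h and 39.0 to 39.3 late, the 4 endothelial markers to 14.98 and 14.995 to 15.3, the 8 fibroblast markers to 33.8 and 33.2 to 34.2, and the 4 muscle markers to 23.9 and 22.3 to 23.1. Of the endothelial markers, 3 or 4 of 4 lay below an array's lower quartile, as did 5 or 6 of the 8 fibroblast and 2 or 3 of the 8 leukocyte markers, but 0 of the 4 muscle markers on any of the 5 arrays. None of the 5 uroplakin genes of urothelium was measured by a probe set of its own. Array medians lay between 6.13 and 6.21 and lower quartiles between 4.36 and 4.54. The 0 h array stood apart in its added poly-A control transcripts, whose median over 24 probe sets was 7.26 there against 5.74 to 6.13 on the late arrays and 5.83 to 6.06 on the other NBTII arrays. It is the only NBTII array at 0 h, so its part in the differences below was not tested except by the comparisons that leave it out.

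At 24 and 48 h, NBTII cells held higher signal for the collagenase Mmp13, the urokinase receptor Plaur, the AP-1 subunit Fosl1, the activin antagonist Fst and the EGF receptor ligand Tgfa than at 0 h. They held lower signal for the basal keratins Krt15, Krt5 and Krt14 and for the inhibitors Id1 and Id2. In all, 106 of 15866 probe sets (0.668%) were higher and 75 (0.473%) lower at an adjusted p under 0.05, by a limma model of log2 signal over all 21 arrays. The called differences ran from -3.50 to 3.92 on the log2 scale and none was smaller than 0.54 in size. At an unadjusted p under 0.05, 11.5% of probe sets differed, the share against which the unadjusted counts below are to be read. Of these 181 probe sets, 57 were higher and 40 lower by at least 2-fold, and at 148 the gap between the 0 h array and the nearest late array exceeded the range of the 4 late arrays. Over all probe sets the median difference was 0.01, and the 4 late arrays all lay above 0 h at 25.2% and all below at 21.7%. The 0 h group has 1 array, so its spread was assumed to be that of the 9 groups with 2 arrays, and an exact permutation of 4 arrays against 1 cannot give a p below 0.2. The count was 75 without the second 48 h array, and 91 and 104 without the first and second 24 h array. It was 106 when 1 NBTII-FGFR1 48 h array was left out, whichever it was. With 1 NBTII-FGFR1 2 h array left out, whichever it was, it was 310. Against the 0.5 h array in place of 0 h, 217 probe sets were higher and 472 lower. Of the 55 called probe sets named here, only 19 passed the threshold against 0.5 h, and 42 kept their sign. Those of Fosl1, Fst, Cd44, Klf6, Kmt2d, Epha2, Vegfa, Itga6, Hmox1, Slc1a5, Mthfd2, Txnrd1 and Calml4 did not keep it. Each array was made from a set mass of total RNA, so fewer cells expressing a gene and less RNA per cell cannot be told apart.

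**Figure D1:**
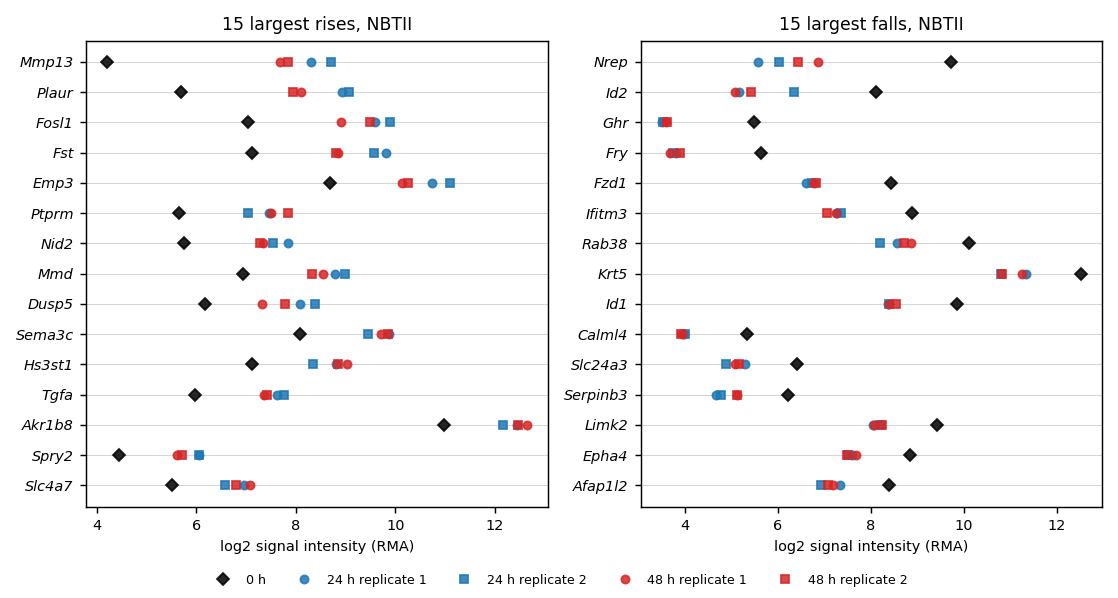
The log2 signal (horizontal axis) of the 15 genes with the largest rises and the 15 with the largest falls in NBTII, with black diamonds for the 0 h array, blue for the 24 h arrays and red for the 48 h arrays. In every gene shown the 4 late arrays lie on one side of the 0 h array, by a gap wider than their own range, which the rule for choosing them required.

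Promoter sequence is shown for Mmp13 and Plaur, the genes with the largest rises, because both windows hold the AP-1 motif and the rise of Fosl1, an AP-1 subunit, came next. The 250 bases before each gene start are printed from RefSeq on the rat build GRCr8, 5′ to 3′ on the gene's own strand, with the motif TGANTCA in capitals. The Mmp13 window is chr8:12782579-12782828 on the plus strand, and its match begins 66 bases before the start. The Plaur window is chr1:89181113-89181362, also on the plus strand, with a match that begins 83 bases before the start.
Mmp13: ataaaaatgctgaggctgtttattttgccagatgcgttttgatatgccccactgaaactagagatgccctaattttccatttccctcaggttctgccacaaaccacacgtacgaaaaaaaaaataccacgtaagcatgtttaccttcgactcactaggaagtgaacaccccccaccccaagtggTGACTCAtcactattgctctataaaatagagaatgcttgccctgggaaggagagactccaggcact
Plaur: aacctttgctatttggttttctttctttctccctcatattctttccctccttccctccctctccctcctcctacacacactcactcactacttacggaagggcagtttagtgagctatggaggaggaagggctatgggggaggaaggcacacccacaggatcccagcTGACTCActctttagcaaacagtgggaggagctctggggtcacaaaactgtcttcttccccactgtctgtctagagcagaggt
The motif was searched on both strands from 250 bases before to 50 after the start, and this search was added after the values were seen. Of 86 genes with a called rise by any probe set, 68 had a window and 6 of these (8.82%) held it, against 2 of 51 windows (3.92%) of the 63 genes with a called fall, 5.46% of windows of all genes on the array and 7.33% of all 27457 windows. No match lay in the windows of Fosl1, Spry2, Dusp6, Tgfa, Krt5 or Id2, which says only that these letters are not there. The windows of Krt14, Krt15 and Fst were not used here. The matches are a description of the letters and no evidence of binding.

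Of the receptors that could carry the signal, Fgfr1 read 3.97 at 0 h, 3.86 and 4.05 at 24 h and 3.82 and 3.87 at 48 h, below the lower quartile of every one of these arrays. Fgfr2, whose epithelial form binds FGF1, read 8.20 at 0 h, 7.01 and 7.20 at 24 h and 7.16 and 7.15 at 48 h. Its 4 late arrays lay below 0 h, with a difference of -1.07 ± 0.33 (SE) that missed the threshold (adjusted p = 0.159). Against the 4 arrays of 2 and 6 h it was lower by -1.10 ± 0.21 (adjusted p = 0.00267). Its 4 other probe sets gave -0.76, -0.32, 0.17 and 0.20 against 0 h, none past the threshold. None of the 13 measured FGF receptor and heparan sulfate coreceptor genes passed against 0 h in limma, with 1 higher and 2 lower at an unadjusted p under 0.05.

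Genes that ERK switches on as its own brakes included 3 that were higher late. Of the 8 measured FGF and ERK feedback genes, 3 rose (Spry2, Dusp5 and Dusp6) and none fell, with a list median of 0.87. Over all genes, 0.749% were called higher and the median was 0.01. This list and the others were chosen with earlier results of these data known, so their counts are a description only. All 4 late arrays lay above 0 h for 7 of the 8, against 26.0% of all genes. Spry2, a Sprouty protein that restrains receptor signalling to Ras, read 4.45 at 0 h, 6.05 and 6.05 at 24 h and 5.61 and 5.72 at 48 h. The fitted rise was 1.41 ± 0.15 (adjusted p = 0.000493). The 0 h level lay just below that array's lower quartile of 4.46, and against that quartile, taken here as a floor, the rise was at least 2.63-fold. Dusp6, a phosphatase specific for ERK, read 10.72 at 0 h, 12.003 and 11.77 at 24 h and 11.90 and 11.78 at 48 h. It rose by 1.14 ± 0.16 (2.21-fold, adjusted p = 0.00298) by this probe set, while its other probe sets gave 0.17 (adjusted p = 0.914) and 0.88 (adjusted p = 0.109). Dusp5, a nuclear ERK phosphatase, read 6.18 at 0 h, 8.09 and 8.39 at 24 h and 7.31 and 7.79 at 48 h, a rise of 1.71 ± 0.38 (adjusted p = 0.042). That call was lost in 10 of the 18 fits that each left out 1 array, with an adjusted p up to 0.108 without the second 48 h array.

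The AP-1 subunit Fosl1 held a raised level where the first-wave factors did not. Fosl1 read 7.04 at 0 h, 9.59 and 9.89 at 24 h and 8.91 and 9.50 at 48 h, a rise of 2.43 ± 0.21 (5.41-fold, adjusted p = 6.69e-05). Fos, another AP-1 subunit and an immediate-early gene, read 4.90 at 0 h and 4.77 to 5.08 late, a difference of 0.06 ± 0.45. Egr1, a zinc finger immediate-early factor, read 6.71 at 0 h, 6.14 and 6.78 at 24 h and 5.33 and 5.37 at 48 h, a difference of -0.81 ± 0.51 (adjusted p = 0.63). Of the 30 measured immediate-early genes, Fosl1 and the Kruppel-like factor Klf6 rose and none fell, against 0.749% of all genes called higher. The list median was 0.07. Klf6 went from 7.76 to between 8.60 and 8.82 (0.94 ± 0.20, adjusted p = 0.037), and lost its call in 8 of the 18 fits, with an adjusted p up to 0.0904. Its other probe set gave 0.61 (adjusted p = 0.238). Against the 0.5 h array the late arrays were lower for Fosl1 by -0.99, for Fos by -5.72 and for Klf6 by -1.85, so the direction of these genes depends on the early time taken as the reference.

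**Figure D2:**
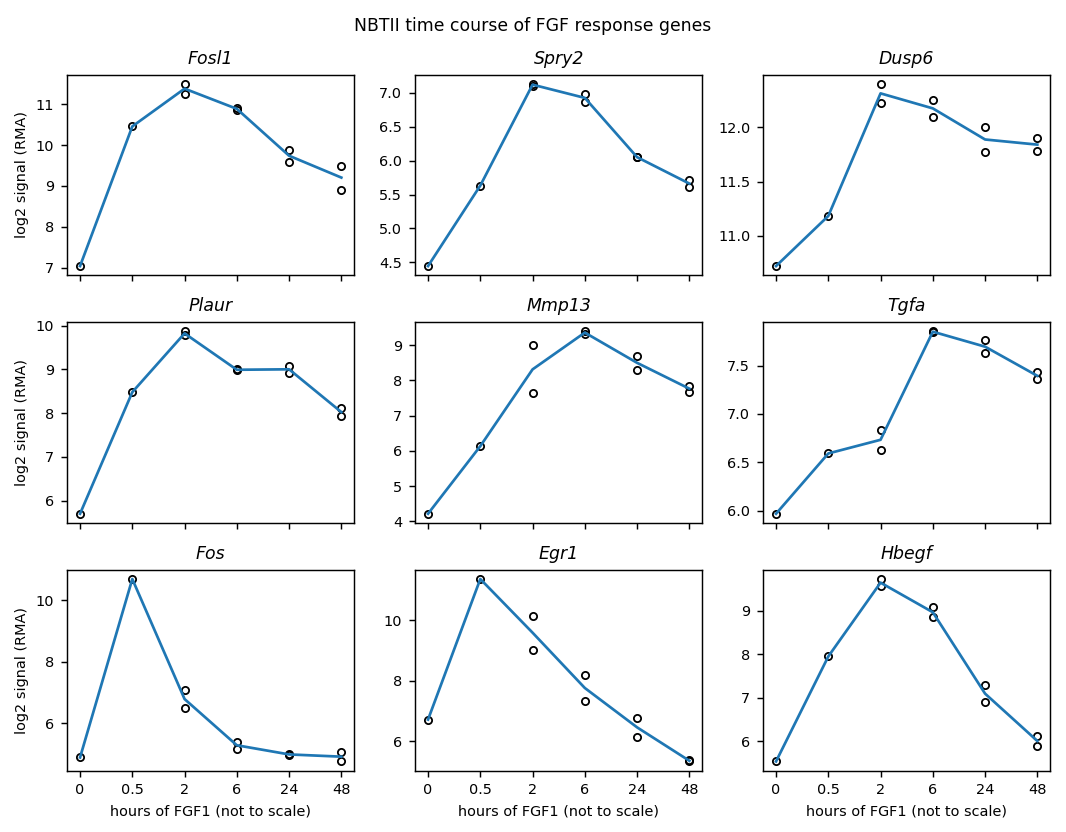
The log2 signal of 9 genes in NBTII against hours of FGF1 (horizontal axis, not to scale), with a circle for each array and a line through the mean at each time; each vertical axis has its own range and does not start at 0. Fosl1, Spry2, Dusp6, Plaur, Mmp13 and Tgfa end above their 0 h value, while Fos returns to 4.77 and 5.08 at 48 h from 4.90 at 0 h and Egr1 to 5.33 and 5.37 from 6.71.

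Of 34 measured genes of pericellular proteolysis, the breakdown of matrix at the cell surface, 4 rose (Mmp13, Plaur, Serpine2 and Hpse) and none fell, with a median of 0.15, against 0.749% of all genes called higher. Mmp13, an interstitial collagenase, read 4.21 at 0 h, 8.30 and 8.70 at 24 h and 7.69 and 7.85 at 48 h. All 4 late arrays lay far above 0 h, a fitted rise of 3.92 ± 0.58 (adjusted p = 0.00464). The 0 h level was below that array's lower quartile, and against that quartile the rise was at least 12.8-fold. Plaur, which binds urokinase at the cell surface, read 5.70 at 0 h, 8.93 and 9.08 at 24 h and 8.11 and 7.94 at 48 h. It rose by 2.81 ± 0.39 (7.02-fold, adjusted p = 0.00296), while a second probe set of the gene gave 0.24 ± 0.36 (adjusted p = 0.916). Hpse, the heparanase that cuts heparan sulfate chains, went from 5.57 to between 6.26 and 6.84 (1.01 ± 0.16, adjusted p = 0.00834). Serpine2, an inhibitor of urokinase and thrombin, went from 6.30 to between 6.95 and 8.02 (1.15 ± 0.23, adjusted p = 0.0295), and lost its call in 4 of the 18 fits, with an adjusted p up to 0.0728. Plau, which encodes urokinase itself, read 7.21 at 0 h and 7.60 to 7.86 late, a difference of 0.57 ± 0.28 that did not pass (adjusted p = 0.476).

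Among 46 measured EGF receptor, ligand and other growth factor genes, Tgfa, Vegfa and Epha2 rose and Pdgfa fell, with a median of 0.07. Over all genes, 0.749% were called higher and 0.519% lower. Tgfa, a ligand of the EGF receptor, read 5.97 at 0 h, 7.63 and 7.76 at 24 h and 7.36 and 7.43 at 48 h. It rose by 1.57 ± 0.13 (2.98-fold, adjusted p = 6.69e-05). The other ligand gene Hbegf gave 1.01 ± 0.34 (adjusted p = 0.206), which did not pass. Epha2, an ephrin receptor, went from 7.84 to between 8.75 and 9.04 (1.05 ± 0.17, adjusted p = 0.00856). Vegfa, the endothelial growth factor, read 8.63 at 0 h, 9.27 and 9.06 at 24 h and 9.85 and 10.17 at 48 h (0.96 ± 0.22, adjusted p = 0.0482), and lost its call in 12 of the 18 fits, with an adjusted p up to 0.122. Another probe set of Vegfa gave 0.94 (adjusted p = 0.061). Pdgfa, a platelet-derived growth factor chain, went from 8.43 to between 7.33 and 7.56 (-0.97 ± 0.21, adjusted p = 0.0354), and lost its call in 6 of them, with an adjusted p up to 0.0904.

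Other large rises were single genes named by their size. Fst, the secreted activin antagonist follistatin, read 7.12 at 0 h, 9.82 and 9.58 at 24 h and 8.85 and 8.81 at 48 h, a rise of 2.15 ± 0.33 (4.43-fold, adjusted p = 0.00589), and its other probe set gave 2.09 (adjusted p = 0.00704). Sema3c, a secreted semaphorin, went from 8.09 to between 9.45 and 9.87 (1.64 ± 0.18, adjusted p = 0.000524). Nid2, the basement membrane protein nidogen-2, read 5.75 at 0 h, 7.84 and 7.54 at 24 h and 7.35 and 7.28 at 48 h, a rise of 1.76 ± 0.19 (adjusted p = 0.000554). Ptprm, a homophilic receptor phosphatase of cell contacts, rose by 1.80 ± 0.21 (adjusted p = 0.000927) from 5.66 to between 7.04 and 7.85. The rule for naming these genes required late arrays that lay clear of 0 h, so that gap is no support. Each was called in all 18 fits, none of which left out the 0 h array. Emp3, a small membrane protein, rose from 8.69 to between 10.13 and 11.10 (1.87 ± 0.34, adjusted p = 0.0177), with an adjusted p of 0.0503 without the second 48 h array. Hs3st1, which adds 3-O-sulfate to heparan sulfate, rose by 1.63 ± 0.24 (adjusted p = 0.00464) from 7.13 to between 8.35 and 9.04. The hyaluronan receptor Cd44 was the 1 of 24 measured mesenchymal transition markers that rose, against 0.749% of all genes called higher. It went from 9.34 to between 10.14 and 10.60 (1.12 ± 0.18, adjusted p = 0.00704). The median of that list was -0.0045. At an unadjusted p under 0.05 in limma, 2 of the 24 were higher and 2 lower, against 11.5% of all probe sets.

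Ccnd1, the G1 cyclin D1, read 10.71 at 0 h, 11.89 and 11.34 at 24 h and 12.03 and 11.96 at 48 h, a rise of 1.09 ± 0.20 (adjusted p = 0.02), and its other probe sets gave 0.93 (adjusted p = 0.00576) and 1.04 (adjusted p = 0.0104). Odc1, the first enzyme of polyamine synthesis, went from 10.77 to between 11.61 and 11.98 (1.04 ± 0.17, adjusted p = 0.00794). The proliferation markers Mki67 and Top2a gave -0.09 ± 0.28 and -0.05 ± 0.23. None of the 33 measured DNA replication genes or 29 mitosis genes passed in limma, and 1 of each list was lower at an unadjusted p under 0.05. Of 32 measured glutathione and NRF2 target genes, 3 rose (0.749% of all genes were called higher) and none fell, with a median of -0.01. They were Akr1b8, an aldo-keto reductase (10.97 to between 12.16 and 12.65, 1.46 ± 0.20, adjusted p = 0.00296), the heme oxygenase Hmox1 (7.43 to between 8.35 and 9.91, 1.56 ± 0.30, adjusted p = 0.0232) and the thioredoxin reductase Txnrd1 (8.66 to between 9.21 and 9.73, 0.82 ± 0.19, adjusted p = 0.0485). Hmox1 lost its call without the second 24 h array (adjusted p = 0.0561), and Txnrd1 in 13 of the 18 fits, with an adjusted p up to 0.111.

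Keratins of basal epithelium fell. Of 12 measured keratin genes, 4 fell (Krt15, Krt5, Krt14 and Krt10) and none rose, with a median of -0.57, against 0.519% of all genes called lower. All 4 late arrays lay below 0 h for 6 of the 12, against 22.1% of all genes. Krt15, a keratin of basal and stem-like epithelial cells, read 9.16 at 0 h, 6.00 and 4.56 at 24 h and 6.90 and 5.83 at 48 h. The late arrays spread over more than 2 log2 units yet all lay well below 0 h, a fall of -3.34 ± 0.56 (10.1-fold, adjusted p = 0.00955). Krt14 read 13.64 at 0 h, 12.77 and 12.61 at 24 h and 12.40 and 12.29 at 48 h, a fall of -1.12 ± 0.14 (adjusted p = 0.00201). Its partner in basal filaments, Krt5, read 12.53 at 0 h, 11.34 and 10.80 at 24 h and 11.25 and 10.82 at 48 h (-1.48 ± 0.28, adjusted p = 0.0226). Both kept high levels on the late arrays. The call of Krt5 was lost without the second 24 h array or the second 48 h array, with an adjusted p up to 0.0618. Krt10, a keratin of differentiating layers, went from 6.39 to between 5.06 and 5.71 (-1.08 ± 0.24, adjusted p = 0.045), and lost its call in 12 of the 18 fits, with an adjusted p up to 0.108. The keratins of simple epithelium Krt8 and Krt18 gave -0.44 ± 0.31 and 0.47 ± 0.66, which did not pass.

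Of 12 measured ID and helix-loop-helix factor genes, 3 fell (Id2, Id1 and Hes1) and none rose, with a median of -0.15, against 0.519% of all genes called lower. Id2 read 8.11 at 0 h, 5.18 and 6.36 at 24 h and 5.08 and 5.42 at 48 h, a fall of -2.60 ± 0.52 (6.06-fold, adjusted p = 0.0285), and its other probe set gave -2.22 (adjusted p = 0.00719). The first 24 h array, the first 48 h array and the second 48 h array each took the first call past the threshold when left out, with an adjusted p up to 0.0644. Id1 read 9.86 at 0 h and 8.37 to 8.54 on the late arrays, which lay close together (-1.43 ± 0.31, adjusted p = 0.0376), and lost its call in 6 fits, with an adjusted p up to 0.0847. Hes1, a target of Notch signalling, went from 9.23 to between 8.53 and 8.70 (-0.61 ± 0.11, adjusted p = 0.02), with an adjusted p of 0.0573 without the second 48 h array. Id4 gave -0.61 (adjusted p = 0.402) by its brightest probe set and -1.12 (adjusted p = 0.0258) by another.

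**Figure D3:**
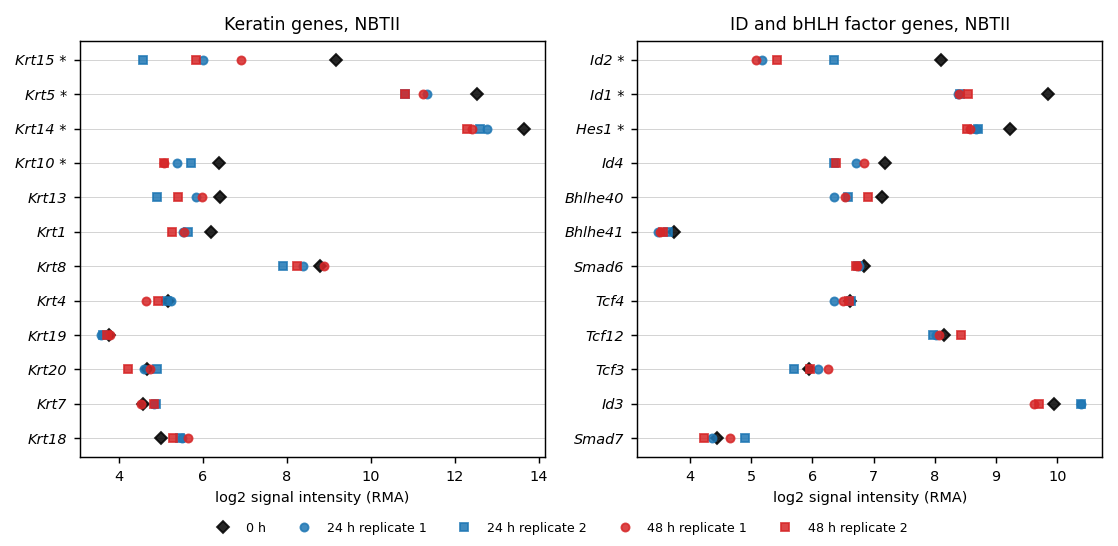
The log2 signal (horizontal axis) of the 12 measured keratin genes, left, and the 12 measured ID and helix-loop-helix factor genes, right, on the 0 h array and the 4 late arrays of NBTII; an asterisk marks a called gene. For Krt15, Krt5, Krt14, Krt10, Id2, Id1 and Hes1 the 0 h diamond lies to the right of all late points, while that of Krt18 lies to their left.

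Other large falls were likewise single genes named by their size. Nrep, a neuronal regeneration-related protein, had the largest, from 9.73 at 0 h to 5.58 and 6.02 at 24 h and 6.86 and 6.44 at 48 h (-3.50 ± 0.72, 11.3-fold, adjusted p = 0.0308), and lost its call in 6 of the 18 fits, with an adjusted p up to 0.0795. Fzd1, a Wnt receptor, read 8.43 at 0 h and 6.61 to 6.82 late, a fall of -1.69 ± 0.23 (adjusted p = 0.00279). Rab38, a GTPase of lysosome-related organelles, read 10.12 at 0 h, 8.57 and 8.20 at 24 h and 8.87 and 8.71 at 48 h, a fall of -1.53 ± 0.20 (adjusted p = 0.00201). Limk2, a kinase that inactivates the actin-severing protein cofilin, went from 9.43 to between 8.06 and 8.25 (-1.29 ± 0.24, adjusted p = 0.0208), with an adjusted p of 0.0531 without the first 24 h array. Epha4, another ephrin receptor, went from 8.85 to between 7.48 and 7.69 (-1.28 ± 0.27, adjusted p = 0.0331), and its other probe set gave -0.99 (adjusted p = 0.0535). Ifitm3, an antiviral membrane protein, went from 8.90 to between 7.07 and 7.36 (-1.66 ± 0.35, adjusted p = 0.0354). Each of these last genes lost its call in 6 of the 18 fits, with adjusted p up to 0.0883 and 0.0904. Ghr, the growth hormone receptor, Fry and Calml4 fell by -1.92 ± 0.37, -1.86 ± 0.29 and -1.37 ± 0.23 (adjusted p = 0.0229, 0.00704 and 0.00955) in the fit, to levels below the lower quartile of every late array. Against those quartiles the falls were at least 2.01-fold, 2.25-fold and 1.81-fold. Other probe sets of Ghr and Fry gave -0.37 (adjusted p = 0.497) and 0.04 (adjusted p = 0.975), and the call of Ghr was lost in 3 fits, with an adjusted p up to 0.0585.

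Lists that moved little by call still differed in how their members lay. Over all genes, 0.749% were called higher and 0.519% lower. Of 26 measured ER chaperone and unfolded protein genes, the chaperones Hyou1 and Calr rose and none fell, with a median of 0.51 (0.34 at 24 h and 0.66 at 48 h). For 22 of the 26 all 4 late arrays lay above 0 h, against 26.0% of all genes, and 16 were higher at an unadjusted p under 0.05. Hyou1 went from 5.60 to between 6.13 and 7.03 (1.01 ± 0.18, adjusted p = 0.0126), while its other probe set gave 0.28 (adjusted p = 0.674). Calr went from 9.92 to between 10.58 and 11.24 (0.97 ± 0.17, adjusted p = 0.0156). Hspa5, the main ER chaperone, read 10.23 at 0 h, 11.52 and 10.97 at 24 h and 11.68 and 12.38 at 48 h, a difference of 1.41 ± 0.33 that missed the threshold (adjusted p = 0.0533). Of 25 ATF4 and amino acid response genes, the glutamine transporter Slc1a5 and the mitochondrial folate enzyme Mthfd2 rose and none fell, with a median of 0.44 (0.14 at 24 h and 0.70 at 48 h). Slc1a5 gave 0.86 ± 0.19 (adjusted p = 0.0379) and lost its call in 6 of the 18 fits, with an adjusted p up to 0.0955, and Mthfd2 gave 0.86 ± 0.19 (adjusted p = 0.045) and lost it in 12, with an adjusted p up to 0.111. None of the 66 measured oxidative phosphorylation subunits passed in limma, 5 being lower at an unadjusted p under 0.05, yet the median was -0.24 and all 4 late arrays lay below 0 h for 46, against 22.1% of all genes. The median of the same genes against 2 and 6 h was -0.05. The poly-A controls of the 0 h array stood apart, as given above, and their part in this pattern was not tested.

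Junction and matrix adhesion genes gave few calls. Cdh1, the gene of E-cadherin, read 7.89 at 0 h, 8.42 and 7.94 at 24 h and 8.37 and 7.82 at 48 h, so the groups overlapped (0.25 ± 0.28, adjusted p = 0.857). None of the 7 measured desmosome genes passed in limma, with 1 lower at an unadjusted p under 0.05, and the plaque genes Dsp and Jup gave -0.27 ± 0.17 and -0.46 ± 0.15. Of 19 adherens and tight junction genes, only the actin linker Vcl rose, from 8.42 to between 9.11 and 9.33 (0.82 ± 0.18, adjusted p = 0.042), and it was also the 1 called of 52 integrin, focal adhesion and actin genes. It lost its call in 12 of the 18 fits, with an adjusted p up to 0.108. Of 6 measured laminin-332 and hemidesmosome genes, the integrin chain Itga6 rose from 9.16 to between 9.59 and 9.88 (0.60 ± 0.13, adjusted p = 0.042), and lost its call in 7 fits, with an adjusted p up to 0.108. Its other probe set gave 0.08 (adjusted p = 0.944). The median of that list was 0.57, and its laminin chain Lama3 gave 1.01 ± 0.25, which did not pass (adjusted p = 0.0736). All 4 late arrays lay above 0 h for 5 of these 6 genes, 28 of the 52 integrin, focal adhesion and actin genes and 9 of the 19 junction genes. The share of all genes was 26.0%. At an unadjusted p under 0.05 in limma, 4, 13 and 5 of these lists were higher and 1, 6 and 0 lower. The mesenchymal markers Vim, Fn1 and Snai1 gave 1.003 ± 0.81, -0.13 ± 0.30 and 0.06 ± 0.17, which did not pass. Across the 35 lists with a measured member, 787 genes were measured, and 24 rose and 9 fell, against 0.749% and 0.519% of all genes. Since the lists were chosen with earlier results of these data known, these shares are no independent support. No called member was held by 17 of the lists. Among these 17 were the lists of 22 cholesterol synthesis and 18 glycolysis genes. Of their genes 0 and 6 were higher and 0 and 1 lower at an unadjusted p under 0.05 in limma, against 11.5% of all probe sets. For the 37 lysosome, 19 YAP-TEAD and 42 chemokine genes these counts were 4, 3 and 3 higher and 1, 1 and 3 lower. For the 21 squamous differentiation, 8 IGF binding protein and 20 cell cycle inhibitor genes they were 1, 0 and 4 higher and 2, 1 and 1 lower.

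**Figure D4:**
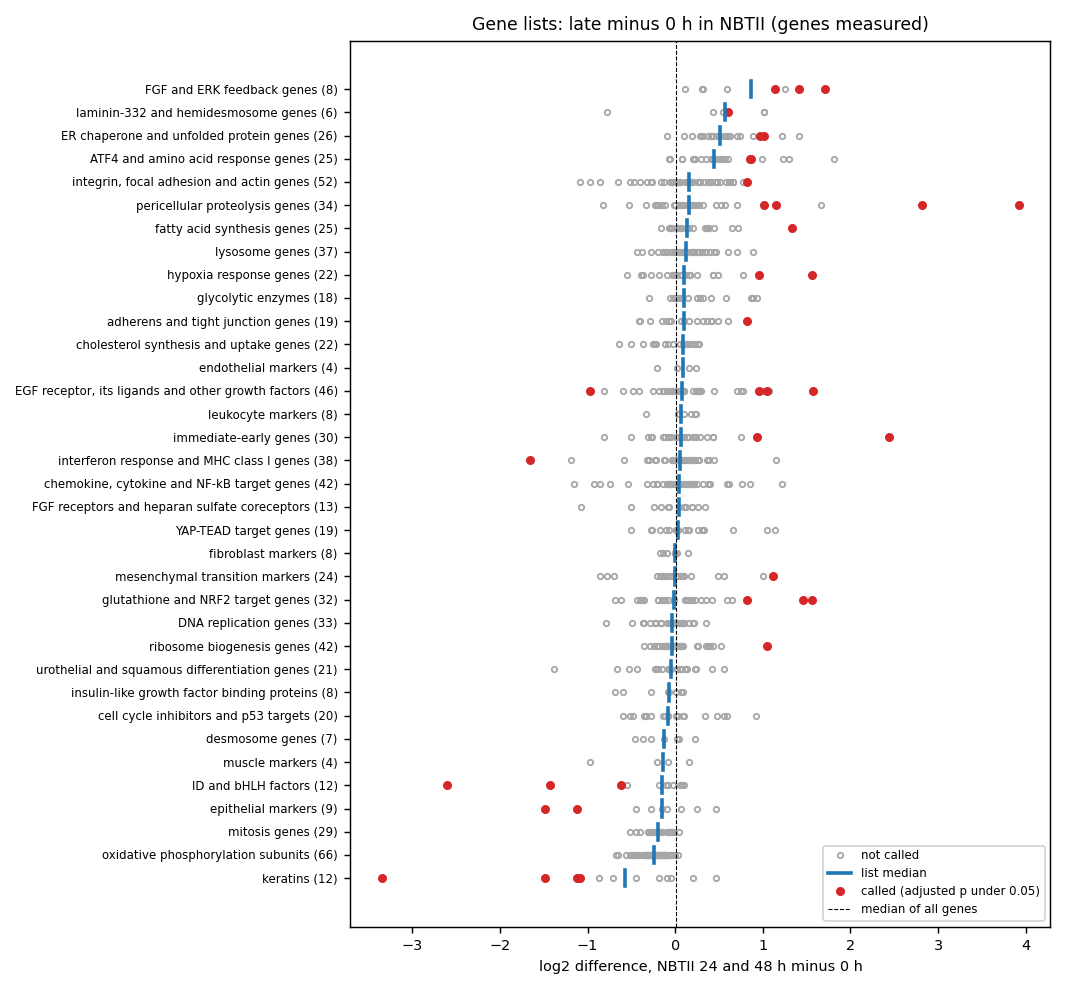
The log2 difference between the mean of the late arrays and 0 h in NBTII (horizontal axis) for each measured gene of the 35 lists (number of genes in brackets), with called genes in red, the list median as a blue bar and the median of all genes as a dashed line. The FGF and ERK feedback median lies at 0.87 and the keratin median at -0.57, and the oxidative phosphorylation genes sit left of the line with none called.

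Leaving the 0 h array out, the late arrays were set against the 4 NBTII arrays of 2 and 6 h, and far more passed: 966 probe sets were higher (6.09%) and 923 lower (5.82%). That count was 1251 in all without the second 48 h array. With 4 early arrays in place of 1, standard errors were smaller here, at 0.09 against 0.15 for Spry2. The counts of calls therefore cannot show which difference was the larger. By gene, 7.17% of all genes were higher late and 6.23% lower. Many first-wave genes were lower than at 2 and 6 h: of 30 immediate-early genes 15 were lower and 1 higher (median late minus 2 h -1.14, minus 6 h -0.03), and of 8 feedback genes 5 were lower and 1 higher. Fosl1, with a mean of 11.14 at 2 and 6 h, was lower late by -1.66 ± 0.13 (adjusted p = 2.97e-06), and Spry2, with a mean of 7.02, by -1.17 ± 0.09 (adjusted p = 2.97e-06), so both lay between their early level and 0 h. Hbegf, a heparin-binding EGF receptor ligand, averaged 9.30 at 2 and 6 h and read 6.89 and 7.29 at 24 h and 5.89 and 6.12 at 48 h (-2.75 ± 0.21, adjusted p = 2.65e-06). Egr1 averaged 8.67 and was lower late by -2.77 ± 0.32 (adjusted p = 7.13e-05). Mmp13, at -0.70, did not differ past the threshold (adjusted p = 0.27).

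Epithelial genes were lower than at 2 and 6 h, some of them without passing against 0 h. Cdh1 averaged 9.87 at 2 and 6 h against 7.82 to 8.42 on the late arrays, a fall of -1.73 ± 0.18 (adjusted p = 2.15e-05), and its 0 h reading was 7.89. Of the 12 keratins, 8 were lower and none higher, with a median of -1.17, against 6.23% of all genes called lower. Krt14 and Krt5 averaged 13.75 and 12.63 at 2 and 6 h and were lower late by -1.24 ± 0.09 and -1.58 ± 0.18 (adjusted p = 1.77e-06 and 6.48e-05), so these falls also stood without the 0 h array. Krt15 averaged 8.08 and was lower by -2.26 ± 0.35 (adjusted p = 0.000691). Krt8 and Krt18, of simple epithelium, were also called lower, by -1.21 and -1.65 (adjusted p = 0.000861 and 0.0168). So were Krt1, Krt13 and Krt10, by -1.21, -1.13 and -0.58. The difference from 2 and 6 h was thus not limited to basal keratins. Id1 and Id2, by contrast, averaged 8.47 and 5.30 at 2 and 6 h and differed by -0.04 and 0.20, which did not pass, so their late means lay close to those of 2 and 6 h. Asprv1, an epidermal protease, showed the largest fall, from an average of 11.27 to between 6.63 and 7.39 (-4.25 ± 0.28), close to its 0 h reading of 6.80. Arg1, the arginase, averaged 8.86 and read 5.51 to 5.79 late (-3.26 ± 0.22).

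Many lipid synthesis and replication genes were higher late than at 2 and 6 h, while none of the cholesterol or replication lists had passed against 0 h. Of 22 cholesterol synthesis and uptake genes 13 were higher and none lower, with a median of 0.56. Of 25 fatty acid synthesis genes 9 were higher and none lower. Over all genes, 7.17% were higher and 6.23% lower in this comparison. Fdft1, the squalene synthase, averaged 7.40 at 2 and 6 h, read 9.03 and 9.29 at 24 h and 8.96 and 9.13 at 48 h (1.70 ± 0.21), and had read 9.33 at 0 h. Fads3, a member of the fatty acid desaturase family, averaged 6.23 and read 7.91 to 8.45 late (1.91 ± 0.17), above its 0 h level of 6.81 too (1.33 ± 0.27, adjusted p = 0.0304, lost in 5 of the 18 fits, with an adjusted p up to 0.0815). Of 33 DNA replication genes 15 were higher and 1 lower, with a median of 0.32. The early times were not alike: the median of the late mean minus 2 h was 0.30 for cholesterol, 0.19 for fatty acid and 0.10 for replication genes, and minus 6 h it was 0.89, 0.42 and 0.54. Searched the same way and given as a description, the E2F motifs TTTCCCGC and TTTGGCGC were in 33.3% of the promoter windows of the replication genes, against 2.53% for genes on the array and 1.53% of all windows. The CCAAT box was in 78.9% of those of the cholesterol genes, 80.8% for mitosis, 63.3% for replication and 57.6% for interferon genes. For genes on the array it was 37.6%. The sterol regulatory element, searched as a single exact string, was in 0 of the 19 cholesterol windows. It was also in 0 of the 8610 windows of genes on the array and 0.102% of all windows. So rare a string cannot show whether cholesterol genes differ. Vim, the intermediate filament of mesenchymal cells, averaged 6.11 at 2 and 6 h and read 8.04 and 8.90 at 24 h and 7.51 and 7.9955 at 48 h, a rise of 2.00 ± 0.51 (adjusted p = 0.0183). Its early arrays differed widely within each pair, at 5.24 and 7.35 for 2 h and 4.97 and 6.89 for 6 h. The second array was the higher there, as at 24 and 48 h. The 0 h reading of Vim, on an array labelled replicate 1, was 7.11. Its call was lost without the first array of 2 h or 6 h and without the second of 24 h or 48 h, with an adjusted p up to 0.0941. The rise of Efhd1, a calcium-binding mitochondrial protein, was 2.40 ± 0.23, from an average of 6.26 to between 8.16 and 9.35, against 7.08 at 0 h.

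Few probe sets were called between the late times. Replicates of 24 h had a median absolute difference of 0.133 and those of 48 h of 0.114, both between single arrays. It was 0.119 between the means of the times, near the 0.128 between the late mean and 0 h. Between 48 and 24 h, 8 probe sets were higher (0.0504%) and 2 lower (0.0126%). At an unadjusted p under 0.05 in limma, 1663 probe sets differed between these times, against 1824 between the late arrays and 0 h. Klf4, a Kruppel-like factor of differentiating epithelium, read 7.34 and 7.19 at 24 h and 8.09 and 8.07 at 48 h, against 7.99 at 0 h (0.82 ± 0.11, adjusted p = 0.0238). Gpnmb, a lysosomal and melanosomal membrane protein, read 8.99 and 8.78 at 24 h and 9.81 and 9.74 at 48 h, against 9.20 at 0 h (0.90 ± 0.14, adjusted p = 0.0367). Sema3b, a secreted semaphorin, read 4.95 and 4.41 at 24 h and 5.88 and 6.15 at 48 h, against 4.83 at 0 h (1.33 ± 0.21, adjusted p = 0.0367). Slc6a9, a glycine transporter, Itm2b, a membrane protein cut by furin, and the death receptor Tnfrsf21 were also higher at 48 h, by 0.91 ± 0.13, 1.04 ± 0.16 and 1.03 ± 0.17. Ubl4a, which helps insert tail-anchored proteins, read 7.28 at 0 h, 6.54 and 6.48 at 24 h and 5.82 and 5.90 at 48 h, lower at 48 than at 24 h (-0.66, adjusted p = 0.0367) and lower late than at 0 h (-1.10 ± 0.12, adjusted p = 0.000493). These calls rest on few arrays: without the second 24 h array or the second 48 h array limma called 0, with 931 and 1043 probe sets at an unadjusted p under 0.05. It called 1 without the first 48 h array and 0 when the model held the NBTII arrays alone, with 1942 at an unadjusted p under 0.05.

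The late response of NBTII was compared with that of NBTII-FGFR1 by the difference between the lines in the change from 0 h. That difference was higher in NBTII at 25 probe sets (0.158%) and lower at 35 (0.221%). For Mmp10 and Mmp3, both stromelysins, the change in NBTII was the smaller. Mmp3 read 3.90 at 0 h and 5.66, 7.56, 4.36 and 4.69 late in NBTII, against 3.57 and 3.79 at 0 h and 10.31 to 10.94 late in NBTII-FGFR1 (-5.18 ± 0.62, adjusted p = 0.00484). Mmp10 read 4.40 at 0 h and 4.42 to 5.82 late in NBTII, against 4.20 and 4.09 at 0 h and 9.08 to 12.48 late in NBTII-FGFR1 (-6.61 ± 0.92, adjusted p = 0.00717). Tmsb4x, the actin-binding thymosin beta-4, read 11.14 at 0 h and 10.40 to 11.08 late in NBTII, against 10.27 and 10.61 at 0 h and 11.70 to 12.06 late in NBTII-FGFR1 (-1.93 ± 0.19, adjusted p = 0.000949). Capn8, a calpain protease, changed by 0.35 in NBTII and 3.94 in NBTII-FGFR1 (-3.58 ± 0.48, adjusted p = 0.00653). Cad, the enzyme that starts pyrimidine synthesis, changed by 0.52 in NBTII and -1.15 in NBTII-FGFR1, a difference of 1.67 ± 0.22 (adjusted p = 0.00653). Fos differed by 3.89 ± 0.57 (adjusted p = 0.00899), and here the lines were apart at 0 h, at 4.90 in NBTII against 9.52 and 9.03 in NBTII-FGFR1, while late arrays read 4.77 to 5.08 and 4.98 to 5.66.

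**Figure D5:**
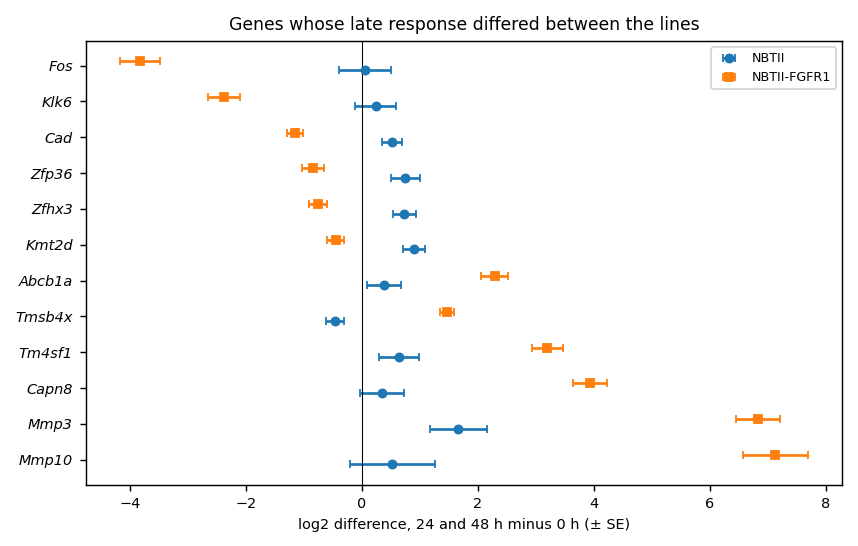
The log2 difference between the late arrays and 0 h (horizontal axis, bars ± SE) in NBTII (blue) and NBTII-FGFR1 (orange) for the 12 genes whose change differed most between the lines. The NBTII points lie between -0.46 and 1.66, while those of NBTII-FGFR1 run from -3.82 to 7.13.

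The library labelled NBTII-FGFR1 0 h, replicate 1, read 3.57 for Fgfr1, the transfected gene, against 5.92 for replicate 2 and 3.97 for NBTII at 0 h. By this probe set of Fgfr1 it went against its label. Its Fos reading, given above, lay near that of replicate 2 and far from that of NBTII at 0 h. Which line it came from was not tested. Without it, 7 probe sets differed between the lines, 1 higher and 6 lower. Cad, Mmp3, Capn8 and Tmsb4x kept their calls (adjusted p = 0.0304, 0.0287, 0.0392 and 0.00857), while Mmp10 (adjusted p = 0.0515) and Fos (adjusted p = 0.0675) did not. The count was 154 when 1 NBTII-FGFR1 2 h array was left out, whichever it was. It was 97 and 37 without the first and second NBTII-FGFR1 24 h array, and 36 without the first NBTII-FGFR1 48 h array. Without the first NBTII array of 24 h and of 48 h it was 34 and 23. Leaving that library out of the comparison of late NBTII with 0 h left 155 calls.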

How the data were processed

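Each sample is 1 Affymetrix array of a rat cell line, and each of its values is the log2 signal of a probe set, deposited by the authors. RMA was named per the submitters' processing notes, with its version not given in the sources used here. RMA corrects background, makes the distribution of signal equal across arrays and summarises probes, so a shift common to most genes is removed and low signals are compressed. Arrays hold no read depth, and their number limits the precision.

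Of 15923 probe sets in the deposited table, 57 controls were left out and 15866 tested; 12783 had 1 gene symbol, 312 several and 2771 none in the platform annotation, and 12748 were matched to RefSeq. Group means of the 12 groups of line and time were fitted with limma 3.58.1 (R 4.3.3; 9 residual and 5.68 prior degrees of freedom), with Benjamini-Hochberg adjustment over all probe sets and a threshold of 0.05. The other tools were Python 3.11.15, pandas 2.3.3, numpy 2.4.6 and matplotlib 3.10.9. The script was tested on simulated data. In lists, each gene was represented by its brightest probe set on average.

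Genes were named by rule: the 15 largest called rises and falls whose late arrays lay on 1 side of 0 h by more than their range, up to 4 members of each list with the smallest p, the 6 largest in each direction of the other 3 comparisons, and 33 fixed genes. The members, lists and rule were chosen with earlier results of these data known. Alternatives were a filter on low signal, the replicate number as a block, fewer arrays in the fit, repeated quantile normalization and other eBayes settings. Further ones were array weights, other references, 1 late group and all probe sets of a gene. Each array with a replicate in its group was also left out in turn, in 18 fits. The single 0 h array of NBTII stayed in all of these fits.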

Additional observations from a re-analysis of the deposited data

Results flagged for a closer look

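Among the 188 named probe sets, 4 had 1 of the 4 late NBTII arrays far from the others by Dixon's test, which chance reaches in about 1 of 20 groups. The second 24 h array read low for Cd44 (10.14), Zeb1 (6.52) and Plod1 (7.02), and the second 48 h array read 4.53 for Fgfr3.

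The change from 0 h differed between the lines, by the limma interaction, at 12 genes named by rule. It was higher in NBTII for Fos (3.89), Klk6 (2.61), Cad (1.67), Zfp36 (1.59), Zfhx3 (1.49) and Kmt2d (1.35). It was lower in NBTII for Mmp10 (-6.61), Mmp3 (-5.18), Capn8 (-3.58), Tm4sf1 (-2.57), Tmsb4x (-1.93) and Abcb1a (-1.91). In NBTII itself Klk6 changed by 0.24, Zfp36 by 0.75, Zfhx3 by 0.73, Kmt2d by 0.90, Tm4sf1 by 0.63 and Abcb1a by 0.38. When the library labelled as replicate 1 of NBTII-FGFR1 at 0 h was left out, the adjusted p was 0.0771 for Klk6 and for Kmt2d, 0.107 for Zfp36, 0.0964 for Zfhx3 and for Tm4sf1, and 0.152 for Abcb1a.

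Between the late times 10 probe sets were called, and 7 genes were named by rule, at most 6 in each direction. At 48 h against 24 h, Sema3b (1.33), Itm2b (1.04), Tnfrsf21 (1.03), Slc6a9 (0.91), Gpnmb (0.90) and Klf4 (0.82) were higher and Ubl4a (-0.66) was lower. Over the 18 fits that each left out 1 array, these calls were lost in between 3 and 10 fits.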

How the results depend on the processing

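Against 0 h, 181 calls became 365 with array weights, 282 without both NBTII-FGFR1 arrays that an earlier reading doubted (0 h replicate 1 and 2 h replicate 1), 689 (217 higher, 472 lower) against 0.5 h, 579 (252 and 327) against the mean of 0 and 0.5 h, and 75 to 310 without 1 array. Between 48 and 24 h, 10 became 6 with the filter on low signal, 0 with only NBTII arrays, 26 with trend and robust eBayes, 223 with array weights, 35 without both doubted arrays, and 0 to 44 without 1 array. Against 2 and 6 h, 1889 became 1251 to 2377 without 1 array. Between the lines, 60 became 371 with only the arrays compared, 245 with array weights, 29 without both doubted arrays, and 7 to 154 without 1 array. The 33 called list members became 57 with array weights, 77 (9 higher, 68 lower) against 0.5 h, 78 (34 and 44) against the mean reference, and 16 to 53 without 1 array. The replicate numbers were not taken as pairing the samples, since not every correlation of the deviations of same-numbered arrays was over 0.1. Over 36 pairs of groups these correlations ran from -0.131 to 0.348 (median 0.0226, 15 over 0.1). That rule cannot exclude a replicate effect at single genes. Vim in NBTII read higher on the second array at 2, 6, 24 and 48 h. The only NBTII 0 h array is labelled replicate 1, so such an effect can enter the comparison with 0 h. With the number as a block, 253 probe sets were called against 0 h, 19 between 48 and 24 h, 2057 against 2 and 6 h and 160 between the lines, and 38 list members.

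Against 0.5 h the late difference turned direction, to -0.99 for Fosl1, -0.14 for Fst, 0.0566 for Calml4, -1.40 for Hbegf, -5.72 for Fos, -3.54 for Zfp36, -0.39 for Kmt2d, -1.85 for Klf6, -0.69 for Sdc1, -0.17 for Cd44, -0.56 for Epha2, -0.68 for Vegfa, -0.17 for Itga6, -1.47 for Ptgs2, -0.0838 for Hmox1, -0.23 for Slc1a5, -0.0286 for Mthfd2, -0.15 for Txnrd1, -1.26 for Cd68 and -1.50 for Plau. Against the mean reference it did so for Fos (-2.83), Zfp36 (-1.39), Klf6 (-0.46) and Cd68 (-0.51). The cause was not tested. With 0.5 h as the reference, 19 of the 55 named probe sets called against 0 h passed the threshold. Of the 55 named probe sets called against 0 h, 28 were called in all 18 fits without 1 array, and 42 had the same sign against 0.5 h. The second 48 h array changed most, 24 of 55 being lost without it.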

Other observations

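Some genes named by the size of their change have no place above. Mmd, a multi-span membrane protein, rose by 1.72 ± 0.29 (adjusted p = 0.00948 in limma) and the bicarbonate transporter Slc4a7 by 1.33 ± 0.26 (adjusted p = 0.0244), the latter losing its call without the first 24 h or the first 48 h array, with an adjusted p up to 0.0626. Slc24a3, a potassium-dependent sodium-calcium exchanger, fell by 1.31 ± 0.20 (adjusted p = 0.00589), from 6.42 at 0 h to between 4.89 and 5.30, while another of its probe sets gave 0.00 (adjusted p = 0.999). Against 2 and 6 h, the MYC antagonist Mxd1 was lower late by -2.99 ± 0.36 and the water and glycerol channel Aqp3 by -2.75 ± 0.34, and both 2 and 6 h means, 9.23 and 7.37, lay above the 0 h readings of 5.88 and 6.01. The histone methyltransferase Ezh1 and the endocytic adaptor Dab2 were higher late by 1.61 ± 0.28 and 1.58 ± 0.29.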
